A study of Homo sapiens with 6 samples.

Results

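Chromatin loops that spanned at least 1 Mb and less than 2 Mb made up 1565 of the 46849 loops called by Micro-C in HAP1 cells, or 3.34% (exact 95% interval 3.18 to 3.51%). They were chosen by span alone, taken as the distance between the midpoints of the anchors. Of the other loops, 39298 spanned under 500 kb, 5755 spanned 500 kb to 1 Mb and 231 spanned 2 Mb or more. HAP1 is an adherent human cell line derived from a chronic myeloid leukaemia line. The cells were wild type with no stated treatment, and the diploid fraction had been sorted after Hoechst staining of DNA, per the series' design text and the labels' protocols. Micro-C maps contacts between distant stretches of DNA, and cuts crosslinked chromatin with micrococcal nuclease before ligation. The 6 labelled replicates form 1 group and enter a single loop list in which they are not told apart. The list does not state sequencing depth. No spread between replicates can be given and no comparison was tested. Intervals cover counting error only, and loops are neither independent of each other nor replicates.

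Loops of this kind are commonly formed where cohesin, a ring complex that extrudes chromatin, is held up at CTCF, a DNA-binding protein, on each side. When cohesin passes some of these stops, larger loops enclose smaller ones and neighbouring stops are joined in many combinations. Contacts at long range also arise between active promoters, between genes repressed by Polycomb complexes and between clusters of coregulated genes. Contact counts alone do not tell these apart.

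Positions are hg19, the build named in the submitters' processing notes, and are counted from 1. No hg19 genome or annotation was used. Genes are named beside positions as background, where their hg19 place is well known. All 29 symbols so used are listed on the stated chromosome in the RefSeq table of GRCh38.p14, in the same order along it at each of 11 loci. Sequences of the anchors themselves are not shown for want of the matching genome. The 250 bases before a start site of 3 genes named below are given in their place, copied by symbol from RefSeq (GRCh38.p14). FIRRE, a nuclear long noncoding RNA gene, lies at the anchor with the most megabase loops. RGMB, a co-receptor of bone morphogenetic proteins, and RIOK2, a kinase of ribosome assembly, lie at opposite ends of another loop. Capitals mark matches to a shortened form of the CTCF core, searched on both strands: CC, any 3 bases, AG, any 2 bases and GGC.
FIRRE, chrX:131830644-131830893, minus strand: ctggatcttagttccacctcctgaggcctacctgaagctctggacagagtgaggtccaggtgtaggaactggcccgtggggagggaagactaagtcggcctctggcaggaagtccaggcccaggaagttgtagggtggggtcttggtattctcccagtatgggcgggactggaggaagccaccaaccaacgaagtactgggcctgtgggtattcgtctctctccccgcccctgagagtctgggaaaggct
RGMB, chr5:98769186-98769435, plus strand: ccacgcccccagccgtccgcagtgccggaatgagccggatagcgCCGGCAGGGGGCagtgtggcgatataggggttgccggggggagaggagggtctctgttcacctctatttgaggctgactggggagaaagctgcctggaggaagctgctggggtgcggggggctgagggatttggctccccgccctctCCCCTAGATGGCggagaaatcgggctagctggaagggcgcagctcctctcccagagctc
RIOK2, chr5:97183248-97183497, minus strand: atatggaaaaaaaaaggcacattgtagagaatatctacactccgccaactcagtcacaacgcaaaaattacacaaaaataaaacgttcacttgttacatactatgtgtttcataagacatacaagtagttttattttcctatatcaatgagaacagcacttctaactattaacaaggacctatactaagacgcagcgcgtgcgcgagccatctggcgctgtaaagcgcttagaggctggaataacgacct

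The RGMB window is 1 of 3 that the table lists for the gene and was shown because it held matches. They begin at bases 45 and 192 counted from its 5′ end and do not overlap, and the windows of FIRRE and RIOK2 held none. Of the 35116 promoter windows in the table, 8.90% held a match in the same 250 bases. A match is a run of letters and was not tested as a binding site.

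Megabase loops thinned out steadily with span. The class of 1000 to 1100 kb held 402 loops, that of 1400 to 1500 kb 142 and that of 1900 to 2000 kb 35. The median span was 1240 kb (quartiles 1095 and 1460 kb). Both limits fall inside this decline. The 42 loops of 1000 to 1005 kb, just long enough, had a median of 21 contacts, and the 53 loops of 990 to 995 kb, just too short, a median of 16. Their median ratios of observed to expected contacts, explained below, were 6.30 and 5.72. At the other end, 20 loops of 1950 to 1995 kb and 17 loops of 2000 to 2040 kb each had a median of 17 contacts. Here the median ratios lay further apart, at 8.95 for the loops just short enough and 5.19 for those just too long, with median expectations of 1.40 and 2.50 contacts.

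**Figure D1:**
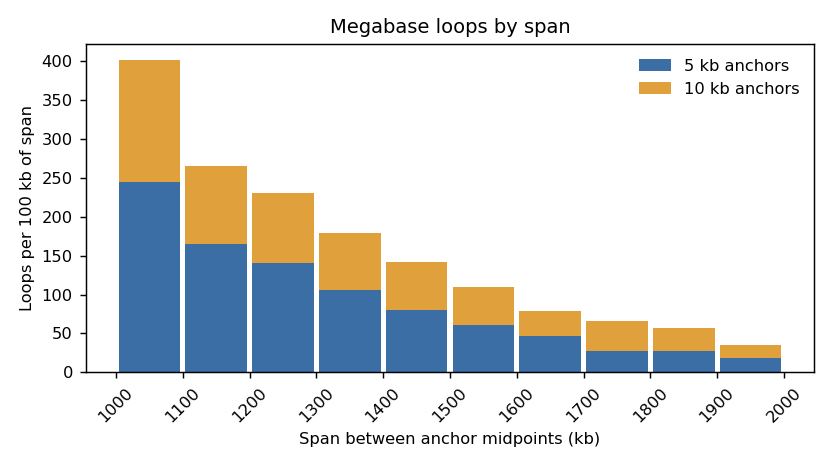
Number of megabase loops (vertical axis) in each 100 kb of span (horizontal axis, kb), stacked by anchor width (5 kb and 10 kb). The bars fall from 402 loops at 1000 to 1100 kb to 35 at 1900 to 2000 kb.

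The loops rested on few contacts. The observed count is the number of contacts in the pixel where the anchors cross. Its median was 18, its quartiles 14 and 23, and its extremes 8 and 178. Counting error alone puts 18 contacts between 10.7 and 28.4 (exact Poisson, 95%), so single loops are known only roughly. The donut expectation, the count predicted from the ring around the pixel, had a median of 2.80 contacts. The ratio of the observed count to it, used below as loop strength, had a median of 6.06 (95% interval of the median 5.88 to 6.32, quartiles 4.27 and 8.84). With 5 kb anchors the median ratio was 8.0 (918 loops) and with 10 kb anchors 4.14 (647 loops). By comparison, the median ratio was 5.13 at 500 kb to 1 Mb and 9.56 at 2 Mb or more, with median expectations of 3.86 and 1.47 contacts. No loop in the list had fewer than 8 contacts, so a small expectation by itself goes with a high ratio. At the median expectation of the megabase loops, 8 contacts give a ratio of 2.86. Whether ratios differ between spans or anchor widths beyond that was not tested.

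Wide anchors and thin support were both more frequent than in the list as a whole. Anchors were 10 kb wide in 41.3% of megabase loops, against 31.5% of loops of 500 kb to 1 Mb, 48.9% of loops of 2 Mb or more and 15.2% of all loops. A single significant pixel carried 22.1% of megabase loops, against 13%, 46.8% and 8.94%. Both shares thus lay between those of the neighbouring span classes. In the authors' deposited table, the caller's 4 q-values, 1 for each surrounding of the pixel, were each at or below 0.1 for 1105 megabase loops (70.6%, interval 68.3 to 72.9%), and the background over all 46849 loops was 72.0%. By this measure the share near the background is no result about the megabase loops.

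**Figure D2:**
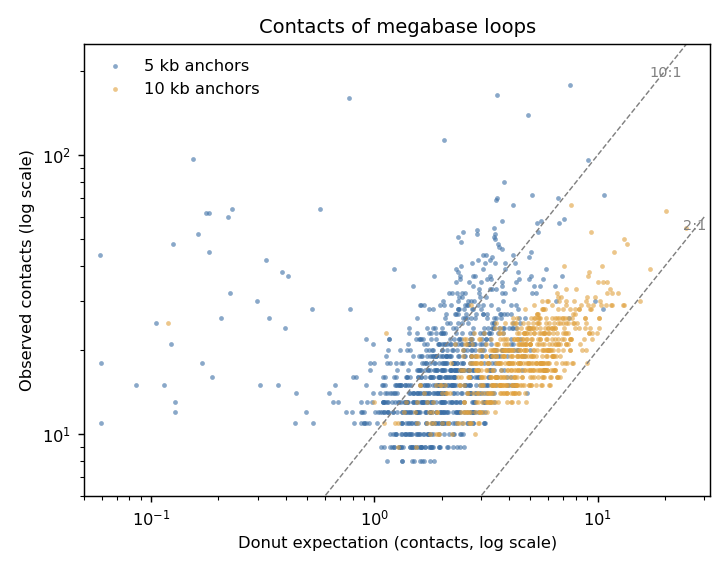
Observed contacts (vertical axis, log scale) against donut expectation (horizontal axis, contacts, log scale) for each megabase loop, coloured by anchor width, with lines at ratios of 2 and 10. Most loops lie between the lines, and a scatter of 66 loops extends to expectations below 1.

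A scatter of 66 loops (4.22%) had a donut expectation below 1 contact, a limit set after the values had been seen. Their ratios ran from 11.7 to 744, which selection by a small expectation produces by itself. The remaining 1499 also differed from them in other features. Of the 66, 37 shared an anchor with any other loop (56.1%, interval 43.3 to 68.3%), against 1450 of 1499 (96.7%, interval 95.7 to 97.6%). Only 3 (4.55%) had their anchors linked by a chain of enclosed loops, against 482 (32.2%). A single pixel carried 66.7% of them, against 20.1%. They lay on 22 chromosomes, and chromosome 22 had 5 of them among its 13 megabase loops. Nearly all had 5 kb anchors (97.0%, against 57.0%), and their median span was longer (1545 kb, against 1235 kb). The part of anchor width and of span in these differences was not tested.

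The strongest contacts by count lay at 5 separate places. The highest joined chromosome 3 at 187455001 to 187460000 with 188670001 to 188675000, with 178 contacts against 7.50 expected over 12 merged pixels. Its lower anchor lies in BCL6, a transcriptional repressor of germinal-centre B cells, and its upper anchor beyond LPP, a gene of cell adhesion. On chromosome 16, 21590001 to 21595000 met 22710001 to 22715000 with 164 contacts against 3.54, over 22 pixels, the most of any megabase loop. On chromosome 13, 23485001 to 23490000 met 24900001 to 24905000 with 160 contacts against 0.771.

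On chromosome 5, 56590001 to 56595000 met 57755001 to 57760000 with 139 contacts against 4.89, and the upper anchor holds the start of PLK2, a polo-like kinase. On chromosome 1, 29720001 to 29725000 met 30875001 to 30880000 with 113 contacts against 2.04. That loop had the highest ratio among those with an expectation of at least 1 contact (55.3). In ratio it was followed by the loops on chromosome 16 (46.3) and on chromosome 2 (130925001 to 130930000 with 132260001 to 132265000, 39 contacts, ratio 31.7). The loops at PLK2 (28.4) and BCL6 (23.7) came next. In the whole class, 39 loops (2.49%) reached 50 contacts and 5 reached 100.

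Most anchors of megabase loops also held loops of other spans. After merging of anchors that overlapped by at least 1 bp, they occupied 2533 of 47497 anchors (5.33%). Of these 2533 anchors, 1971 (77.8%, interval 76.1 to 79.4%) also held a loop of another span. An anchor with 5 or more loops of any span was found in 29.9% of them, against 6.71% of all anchors. The count of loops at an anchor includes its megabase loops. An anchor with more loops also has more chances to hold a megabase loop, so the way of choosing raises the share by itself. Whether the share exceeds that was not tested. Seen from the busiest anchors, 159 of the 383 with 8 or more loops (41.5%, interval 36.5 to 46.6%) held a megabase loop. The same limit applies to that share.

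Seen loop by loop, 1487 megabase loops (95%, interval 93.8 to 96.0%) shared an anchor with some other loop and 1149 (73.4%, interval 71.2 to 75.6%) shared both. Some anchor was shared by 96.9% of loops of 500 kb to 1 Mb, 72.3% of loops of 2 Mb or more and 89.7% of all loops. The share with both ends in use was 72.1% for loops of 500 kb to 1 Mb and 50.6% (interval 44.0 to 57.3%) for loops of 2 Mb or more. Over all loops it was 55.5%. Sharing among megabase loops themselves was lower: 887 (56.7%) met another of their class at an anchor, against 67.1% within the class of 500 kb to 1 Mb and 25.5% within that of 2 Mb or more. The classes differ in size, so these within-class shares are not on equal terms. The share depends on what counts as the same anchor, with 38.5% when bins had to be identical and 67.0% when anchors within 10 kb were merged.

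Most member anchors held a single megabase loop (2073 of 2533, 81.8%), 362 held 2 and 98 (3.87%) held 3 or more. Where an anchor held several, they nearly always ran to the same side. All megabase loops went a single way at 89 of these 98 anchors (90.8%, interval 83.3 to 95.7%) and at 337 of the 362 with 2 (93.1%, interval 90.0 to 95.5%). For loops of 500 kb to 1 Mb the shares were 71.1% (340 of 478 anchors, interval 66.8 to 75.2%) and 83.8% (1331 of 1589). For loops of 2 Mb or more they were 4 of 5 anchors and 24 of 25 (96%, interval 79.6 to 99.9%). The classes differ in size here too, so these shares are not on equal terms. Of all megabase loops, 431 (27.5%, interval 25.3 to 29.8%) had another with both anchors within 100 kb. Such neighbours run to the same side by themselves where they share an anchor. Their part in these shares was not tested.

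The busiest anchor lay on chromosome X at 130960001 to 130970000, where FIRRE starts. It held 9 megabase loops among 16 of any span, and all 9 ran to higher coordinates, where HS6ST2 (a heparan sulfate sulfotransferase) and the glypican genes GPC4 and GPC3 lie. Their partners began at 1120 kb, in the interval 132080001 to 132090000, and ended at 1960 kb, in 132920001 to 132930000. Contacts ranged from 10 to 30 with a median of 18, and ratios from 3.40 to 12.4. The strongest of the 9 by ratio reached 132800001 to 132805000 (18 contacts). Each loop enclosed 23 to 61 shorter ones. FIRRE is known from other cells for very long contacts on the inactive X, and no link of these loops to them was tested.

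The anchor at BCL6 (chromosome 3, 187450001 to 187460000) held 7, all to higher coordinates and all with 5 kb anchors. In order of span from 1010 to 1495 kb, their contacts were 51, 18, 29, 178, 36, 69 and 40. Their ratios of 6.75 to 23.7 had a median of 14.8, the highest of the 10 busiest anchors. The counts followed no order of distance along the row of partners.

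The third anchor lay in the replication-dependent histone genes of chromosome 6 (27860001 to 27870000), where H2BC17 lies. Of its 6 megabase loops, 5 ran to lower coordinates, with 13 to 25 contacts. Partners at 26030001 to 26035000, 26120001 to 26130000, 26215001 to 26220000 and 26270001 to 26275000 hold the histone genes H3C2, H2AC6, H2BC8 and H3C8. The fifth lower partner lay at 26550001 to 26555000 (13 contacts, ratio 6.55), and the upper one at 28910001 to 28920000 (24 contacts, ratio 4.78). No gene is named for these. Such genes are transcribed together in S phase in a nuclear structure called the histone locus body. A neighbouring anchor at 27100001 to 27105000, in which H2BC11 lies, met 26030001 to 26035000 (23 contacts, ratio 11.1) and 26055001 to 26060000 (26 contacts, ratio 10.2).

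On chromosome 5, the anchor at 88020001 to 88030000, at the end of the muscle and neuronal factor gene MEF2C, held 4 loops of 1430 to 1660 kb to higher coordinates. They had 14 to 28 contacts and ratios of 4.13 to 5.21.

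Further hubs stood at starts of genes. RGMB on chromosome 5 (98100001 to 98110000) held 4 loops to lower coordinates, with 20 to 26 contacts. The longest, 1590 kb, ended at 96515001 to 96520000, where RIOK2 starts (20 contacts, ratio 4.76), so that it joined the starts of both genes whose sequences are shown above. On chromosome 1, the start of KIF26B, a kinesin gene (245310001 to 245320000), held 4 loops to higher coordinates, with 11 to 36 contacts.

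The shared start region of CEP170 and SDCCAG8, both genes of centrosomal proteins (243410001 to 243420000), was the only one of the 10 hubs besides the histone anchor with loops to both sides. Its lower partner, 242010001 to 242015000, holds the start of EXO1, a DNA repair nuclease (16 contacts, ratio 7.06). Of its upper partners, 244615001 to 244620000 holds the start of ADSS2, an enzyme of purine synthesis (21 contacts, ratio 9.97). The partner at 245025001 to 245030000 holds that of HNRNPU, a nuclear RNA-binding protein (14 contacts, ratio 11.4). The remaining one, 244810001 to 244820000, takes in the start of DESI2, a deSUMOylating enzyme (23 contacts, ratio 4.93).

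**Figure D3:**
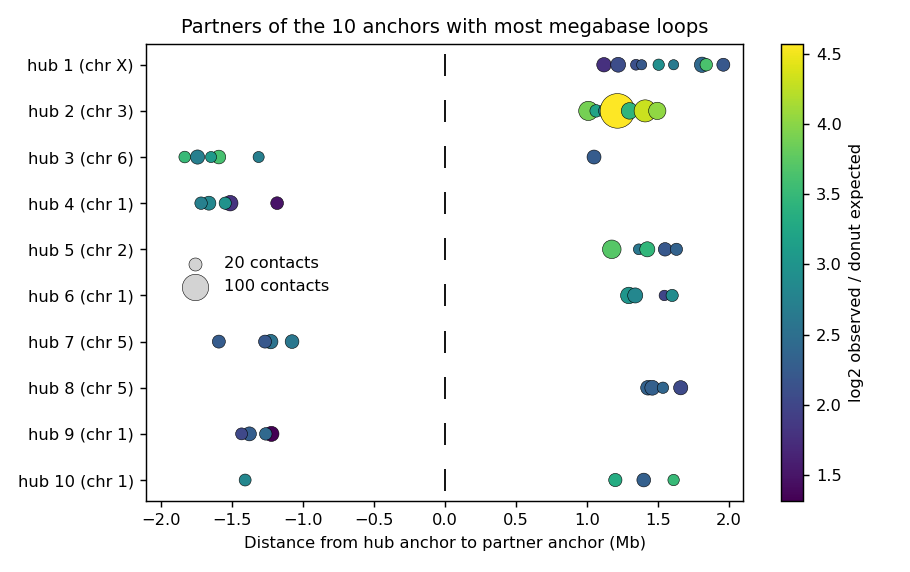
Distance in Mb from each of the 10 anchors with the most megabase loops (rows, busiest at the top) to the partner of every megabase loop it holds. Point area grows with the observed contacts and colour gives log2 of observed over expected. At 8 of these 10 all partners lie to a single side, and the largest point is the loop of 178 contacts at the second anchor.

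Megabase loops also formed small grids, in which a pair of lower anchors and a pair of upper anchors were joined in all 4 ways. There were 26 such grids at 17 places on 12 chromosomes, and 76 megabase loops belonged to them (4.86%, interval 3.84 to 6.04%). Among loops of 500 kb to 1 Mb the share was 3.61% (interval 3.15 to 4.13%). Among those of 2 Mb or more it was 0 of 231, which would allow up to 1.58% if loops were independent. Loops enter a grid at least 4 at a time, so these intervals are too narrow. A grid also needs loops of its own class, and the classes differ in size, so the shares are not on equal terms. A grid of 6 loops lay on chromosome 6 between 3 lower anchors from 44440001 and 2 upper ones ending at 45895000, on both sides of SUPT3H and RUNX2, the master factor of bone formation. Their contacts were 15 to 45 and their ratios 5.49 to 8.93. A further grid of 6 loops lay on chromosome 2 from 7235001 to 8910000, with 10 to 29 contacts.

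A group of 8 loops connected through shared anchors lay on chromosome 1 from 172500001 to 174970000. Several of its anchors hold starts of genes: 172500001 to 172505000 that of SUCO, 173835001 to 173840000 that of ZBTB37 and 174965001 to 174970000 that of CACYBP. The loops from SUCO to ZBTB37 (19 contacts, ratio 9.46) and from ZBTB37 to CACYBP (22 contacts, ratio 9.22) stood end to end. In all, the 1565 loops fell into 989 groups connected by shared anchors, of which 678 were single loops and 134 had 3 or more.

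Shorter loops filled nearly every megabase loop. A loop counted as enclosed when both its anchors lay between the outer edges of a longer one. The megabase loops enclosed a median of 18 shorter loops (quartiles 11 and 25, range 0 to 84). Per Mb of span the median was 13.8, against 15.5 for loops of 500 kb to 1 Mb and 9.0 for those of 2 Mb or more. Together they took in 16176 different loops, 34.5% of the list, while the stretches between their outer edges covered 36.8% of the length over which loops were found (1079 of 2932 Mb). Of the 29147 pairs of a megabase loop and a loop inside it, 35.2% had an inner loop under 100 kb, 46.3% one of 100 to 500 kb and 14.7% one of 500 kb to 1 Mb. The remaining 3.75% were megabase loops themselves.

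The inner loops covered a median of 98.7% of the length of the megabase loop, and the longest of them spanned a median of 74.6% of it. At least 1 inner loop shared the lower anchor in 73.3% of megabase loops and the upper anchor in 73.4%. Both anchors were shared in 56.2%, and neither in 9.46%. In 485 (31.0%, interval 28.7 to 33.3%) a chain of inner loops led from one anchor to the other through shared anchors. The shortest chain had 2 loops in 319 cases, 3 in 109, 4 in 37 and 5 or more in 20. When chain loops only had to meet at merged anchors, whatever their outer edges, 359 megabase loops (22.9%, interval 20.9 to 25.1%) were closed by 2 shorter loops. For loops of 500 kb to 1 Mb that share was 22.1%, and for those of 2 Mb or more 7.36%. The anchor in the middle lay a median of 54.4% of the way along (449 middle anchors, quartiles 27.3 and 78.5%). The share of 22.9% became 46.0% with anchors merged within 10 kb and 10.7% with identical bins only.

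Many megabase loops were themselves inside longer loops or cut across each other. A longer loop enclosed 746 of them (47.7%), and 819 (52.3%) were the outermost at their place. The outermost share was 35.6% for loops of 500 kb to 1 Mb and 72.7% for those of 2 Mb or more. Another megabase loop lay inside 588 of the 1565 megabase loops (37.6%). In 685 (43.8%, interval 41.3 to 46.3%) the loop interleaved with another megabase loop, with an anchor of each inside the other.

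**Figure D4:**
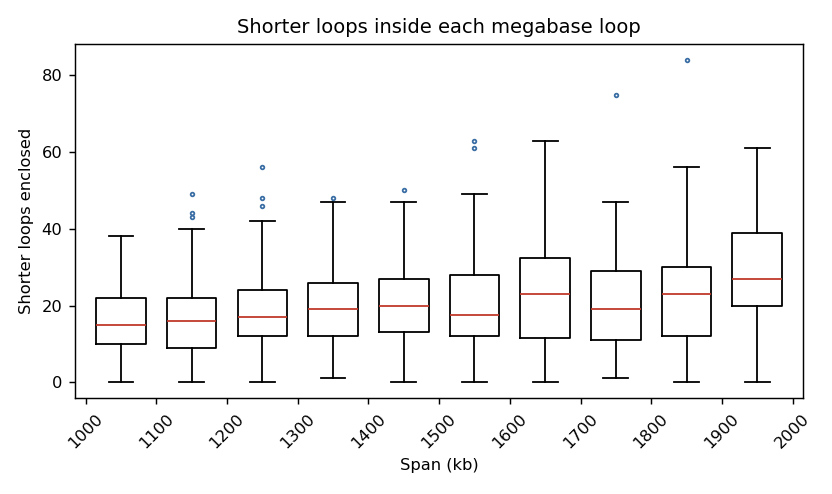
Number of shorter loops enclosed by each megabase loop (vertical axis) in 100 kb classes of span (horizontal axis, kb), as boxes of the quartiles with the median in red, whiskers to 1.5 times the box height and points beyond. The medians move from 15 in the shortest class to 27 in the longest, and the boxes of these 2 classes overlap.

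Span and the number of enclosed loops were only weakly related. The medians were 15 at 1000 to 1100 kb and 27 at 1900 to 2000 kb, and across the 1565 loops Spearman's rho was 0.19. The extremes lay elsewhere. The 4 fullest megabase loops were on chromosome 6 between 26030001 and 28660000, in and beside the histone genes. The first joined 26030001 to 26035000 with 27860001 to 27865000 and held 84 shorter loops, the next 75, and the others 63 each. A further loop there, from 26270001 to 27865000, and the longest loop of the FIRRE anchor held 61 each. The fullest loop itself rested on only 15 contacts (ratio 11.4). For the loops that held 63 each, the largest of the caller's 4 q-values was 0.123 and 0.482, above the limit of 0.1.

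At the other end, 14 megabase loops (0.895%, interval 0.490 to 1.50%) enclosed none. The share was 1.27% for loops of 500 kb to 1 Mb and 1.73% for those of 2 Mb or more. The longest of the 14, on chromosome 17 from 68630001 to 70540000, spans SOX9, the regulator of cartilage and testis formation. It had 14 contacts in 1 pixel against 0.626 expected. Next were loops on chromosome 16 (25285001 to 27125000, 16 contacts) and on chromosome 20 (58780001 to 60470000, 13 contacts). They were followed by loops on chromosome 10 (131985001 to 133620000, 17 contacts) and again chromosome 20 (53265001 to 54825000, 16 contacts).

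Of these 14 loops, 5 were on chromosome 20. Some megabase loops crossed stretches that held no anchor at all. There were 87 anchor-free stretches of at least 1 Mb. Only the 58 shorter than 2 Mb could be crossed by a loop of this class, and 33 megabase loops crossed 17 of them. The stretches are bounded by anchors, which can be those of the crossing loops themselves. Chromosome 20 alone had 4 of the 17 stretches and 15 of the 33 loops. Its median of 4.5 enclosed loops was the lowest of any chromosome. In 3 of the 4 places the loops made a grid of 2 by 2 anchors. The grid from 40365001 to 42040000 had 13 to 21 contacts and that from 53265001 to 54920000 had 16 to 26.

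Megabase loops were not a fixed share of each chromosome's loops. They made up 5.69% on chromosome 21 (24 of 422 loops, interval 3.68 to 8.34%), 4.93% on chromosome 15 (76 of 1543), 4.52% on chromosome 13 (61 of 1351) and 4.46% on chromosome 6 (138 of 3092, interval 3.76 to 5.25%). The lowest shares were 0.943% on chromosome 19 (14 of 1484, interval 0.517 to 1.58%), 1.62% on chromosome 17 (25 of 1543) and 1.97% on chromosome 22 (13 of 661). Chromosomes 19, 17 and 22 are known as gene-dense and chromosomes 13 and 21 as gene-poor. Chromosome 4, also gene-poor, had 2.89% and X had 2.88%. Gene-poor chromosome 18 had 3.47%, near the 3.34% over all chromosomes. The part of gene density was not tested. The intervals treat loops as independent, which they are not.

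Per Mb of covered length, chromosome 15 had the most, 0.955 against 0.534 over all chromosomes, and megabase loops covered 56.0% of it. Chromosome 6 had 0.809 per Mb, chromosome 21 had 0.648 and chromosome 19 had 0.238. The shares above also depend on how many loops of any span a chromosome had. That number was lowest on chromosome 21 (11.4 per Mb) and highest on chromosome 19 (25.3 per Mb). Chromosome 15 from 62 to 88 Mb is the stretch where HAP1 is known to carry extra DNA copies. The share of megabase loops was 4.94% inside it (34 of 688 loops) and 4.91% in the rest of the chromosome (42 of 855). The median donut expectation was 2.76 for the 22 megabase loops with 5 kb anchors inside, against 2.02 for the 24 in the rest, and depth itself was not measured. The observed count had a median of 18 in both.

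**Figure D5:**
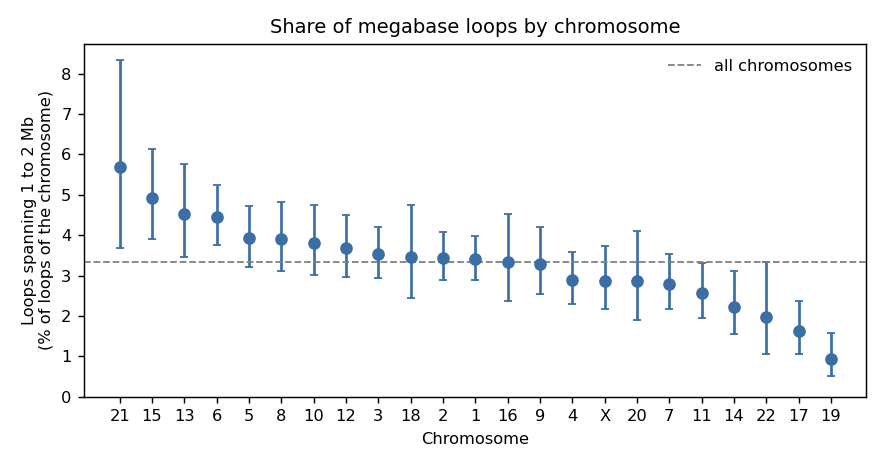
Share of each chromosome's loops that span 1 to 2 Mb (vertical axis, %, points with exact 95% intervals), with chromosomes ordered from the highest to the lowest share and a dashed line at the share over all chromosomes. Chromosome 21 stands highest at 5.69% and chromosome 19 lowest at 0.943%.

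The loci with the most megabase loops were spread over many chromosomes. In fixed windows of 5 Mb, with loops placed by their midpoint, 476 of 591 windows held a megabase loop, the median was 2 and 14 windows held 10 or more. Those 14 windows held 10.4% of all megabase loops. The first was chromosome 15 from 70 to 75 Mb with 15. It was followed by chromosome 6 from 25 to 30 Mb with 14, which holds the histone genes, and by chromosome 8 from 60 to 65 Mb, also with 14.

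Chromosome 18 from 40 to 45 Mb had 12, which were 16.7% of the 72 loops there, the highest share among the windows with 10 or more. Windows with 11 lay on chromosomes 3 (70 to 75 Mb), 5 (50 to 55 Mb), 6 (85 to 90 Mb), 10 (30 to 35 Mb), 12 (60 to 65 Mb and 115 to 120 Mb) and 21 (35 to 40 Mb). Megabase loops in the window on chromosome 21 enclosed a median of 7 shorter loops, against 48 in the histone window of chromosome 6. These windows held 93 and 171 loops of any span. The number enclosed per megabase loop thus differed widely between loci rich in megabase loops.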

How the data were processed

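Micro-C loops of HAP1 cells were taken from the single list for the series (6 labelled replicates, not told apart). The submitters' processing notes name BWA and hg19 without a role; the file header names juicer_tools 1.22.01, and the column names are those of the HiCCUPS caller. The sources used here do not state the pooling, the depth or the settings of the caller. In the deposited list the authors gave observed contacts as raw counts, expected contacts from 4 surroundings on the count scale, q-values (adjusted p-values) and the radius of merged pixels.

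From these, span, ratio of observed to donut expectation, merged anchors (overlap of at least 1 bp), enclosed loops, chains, grids, connected groups and 5 Mb windows were computed with Python 3.11.15, numpy 2.4.6, pandas 2.3.3, scipy 1.17.1, networkx 3.6.1 and matplotlib 3.10.9. Intervals are exact binomial or Poisson. The counting functions were tested on simulated data. Named positions are the 10 busiest anchors, top windows and groups, and the 5 extremes by count, ratio and enclosed loops; grids, loops with expectations below 1 and the chromosome 20 loops were chosen after their values were seen. Members and lists were chosen with earlier results of these data known. Alternatives covered span limits, q-values, anchor width, repeated calls, merging, enclosure, windows, the expectation used and the chromosome 15 stretch. Results at some named loci are not reported here.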

Additional observations from a re-analysis of the deposited data

How the results depend on the processing

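Of 93 alternative values for 11 main results, 50 stayed within the interval of the reported value or within 1.5 times a count, and 43 did not. Settings that keep part of the list leave fewer loops to share an anchor with or to enclose. With 10 kb loops only there were 647 megabase loops with a median ratio of 4.14 and 3 enclosed loops; 9.27% enclosed none, 24% shared an anchor with another megabase loop, 65.4% with any loop, 0.773% were closed by 2 loops, 8.04% had a neighbour within 100 kb, 6 anchors held 3 or more and the fullest window held 8. With 5 kb loops only there were 918, with a ratio of 8.0 and 14 enclosed loops; 48.7%, 92.3% and 17.8% shared with a megabase loop, shared with any loop and were closed by 2 loops, and 40 anchors held 3 or more. With the 4 q-values at or below 0.1 the ratio was 7.40, 11 loops were enclosed, 1.99% enclosed none, the shares were 50.5%, 92.8% and 18.9%, 23.1% had a neighbour and 54 anchors held 3 or more. Anchors merged within 10 kb gave 67.0%, 98.7% and 46.0% and 149 such anchors; identical bins gave 38.5%, 81.2% and 10.7% and 46. Spans of 900 kb to 1.8 Mb gave 59.3% sharing among megabase loops, 16 enclosed loops and a ratio of 3.96 between the shares of chromosomes 21 and 19 (6.03 reported). Spans of 1.1 to 2.2 Mb gave 53.9% and 19. Strict enclosure between anchors gave 14 loops and 2.24% with none. The horizontal and vertical expectations gave ratios of 5.19 and 5.07. Windows of 10 Mb held up to 23. Chromosome 19 had the lowest share under all 7 settings that recomputed chromosomes, and chromosome 21 the highest in each but 10 kb loops only (chromosome 15, 13%, against 12.8%). No paired analysis was possible because the list does not tell replicates apart. Contact counts, a median of 18, limit what single loops show.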

Other observations

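Some neighbouring megabase loops lay on lines. On chromosome 2, 4 loops joined lower anchors from 130925001 to 131040000 with upper anchors from 132130001 to 132265000. Each lower anchor that lay further up was paired with an upper anchor that lay further down, so that the spans fell over 240 kb while the sums of the anchor positions differed by 20 kb at most. Their contacts were 39, 80, 42 and 62, and their expectations 1.23, 3.8, 0.326 and 0.182. On chromosome 13, 3 loops from 23485001 kept their span within 10 kb instead (1415, 1420 and 1425 kb), with 160, 27 and 38 contacts.

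Such lines were not usual at this span. Of 228 pairs of megabase loops with both anchors within 200 kb and more than 10 kb apart, 12 (5.26%, interval 2.75 to 9.01%) had sums within 10 kb and 13 (5.70%) had spans within 10 kb. Among loops of 2 Mb or more, 28 of 47 pairs (59.6%, interval 44.3 to 73.6%) had constant sums, and among loops of 500 kb to 1 Mb 82 of 1538 (5.33%). Pairs share loops, so the intervals are too narrow.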
